A study of Mus musculus with 2 samples.

Results

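Protease inhibitor transcripts, the serpins and the smaller Kazal, WAP, stefin, cystatin and Kunitz families, were examined in colon mucosal scrapings of mice with dextran sulfate sodium (DSS) injury. Members were the probe sets whose platform gene symbol starts with Serpin (without Serpinh1, a collagen chaperone) or with Stfa, is Spink or Wfdc followed by a number, or is Slpi, Csta1, Cstb, Cst3, Cst6, Cst7, Spint1, Spint2 or A2m. This rule found 86 probe sets of 68 genes among 34945 probe sets of 18193 genes with a single symbol. Another 4 probe sets with a serpin or stefin symbol carry several symbols and were left unnamed. The 68 genes comprised 14 serpins of clade A, 18 of clade B, 7 other serpins, 7 Kazal genes, 12 WAP genes, 7 stefins and cystatins, 2 Kunitz genes and A2m.

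Both groups were C57BL/6 mice, 6 to 8 weeks old per the sample labels and 7 weeks old per the design text, treated with 3% DSS for 3 days, and neither was an untreated control. Hif-2αF/F mice have floxed copies of Epas1, which encodes the hypoxia-responsive transcription factor HIF-2α. In Hif-2αΔIE mice it is deleted; the labels leave IE unexplained, and general knowledge of the model reads it as intestinal epithelium. The sources used here do not give the promoter that drives Cre. The data hold 1 array per genotype, although 6 mice of the F/F and 5 of the ΔIE genotype are counted in the design text, and pooling of RNA is not stated. There is therefore no replicate check, and every difference below compares these 2 arrays without a test, standard error or p-value.

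Each value is a log2 expression level from robust multi-array averaging (RMA). A difference is the ΔIE level less the F/F level, and 1 unit is 2-fold. A gene took the values of its brightest probe set, and it was kept where the mean of both arrays reached 6.11, the median over all probe sets. Of the 18193 genes 11593 were kept, with a correlation of r = 0.96 between the arrays, which is across genes. As a check of the labels, Epas1 read 11.90 (F/F) and 11.77 (ΔIE) by its brighter probe set and 6.98 and 7.15 by the other; where these lie relative to the deleted part was not determined, so they check little. The 4 control probe sets for Cre recombinase read 2.92 to 4.22 in F/F, against 7.86 to 10.01 in ΔIE. They are controls of the array, so Cre control RNA added to 1 sample only would be read in the same way. Whether such RNA was added was not determined. All 8 colonocyte and all 7 goblet cell markers listed were kept, so defining markers of the labelled tissue were present.

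Proteases released by leukocytes and epithelium are held in check by such inhibitors in the gut lining. Serpins trap serine proteases (a few trap cysteine proteases) through a loop that the protease cuts, after which the enzyme stays bound; some serpins have lost this activity. WAP, Kazal and Kunitz proteins are small domains that plug the active site of serine proteases, while stefins and cystatins block cysteine cathepsins. Slpi and the elastase-inhibiting serpins are known for restraining neutrophil elastase, and Spint1 and Spint2 for restraining membrane-anchored epithelial proteases.

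Most protease inhibitor transcripts above the filter were lower on the ΔIE array. Of the 28 members kept, 15 (53.6%) were at least 2-fold lower and 0 were 2-fold higher, while 4.92% of all genes kept were 2-fold lower and 1.11% were 2-fold higher. At so low a share of higher genes, 0 of 28 says little about the inhibitors. The median difference was -1.05 over the members kept and 0.02 over all genes kept. Of the 28, 22 were below 0 and 6 above it, and all 28 read at or above the filter on both arrays. Over all 68 members without a filter, 16 (23.5%) were 2-fold lower against 3.72% of all genes, none was 2-fold higher against 0.797%, and the median was -0.24 against 0.04. The largest difference, that of Slpi, ranked 43 from the lowest among all genes kept, and Stfa3 ranked 46 and Stfa2l1 69.

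**Figure D1:**
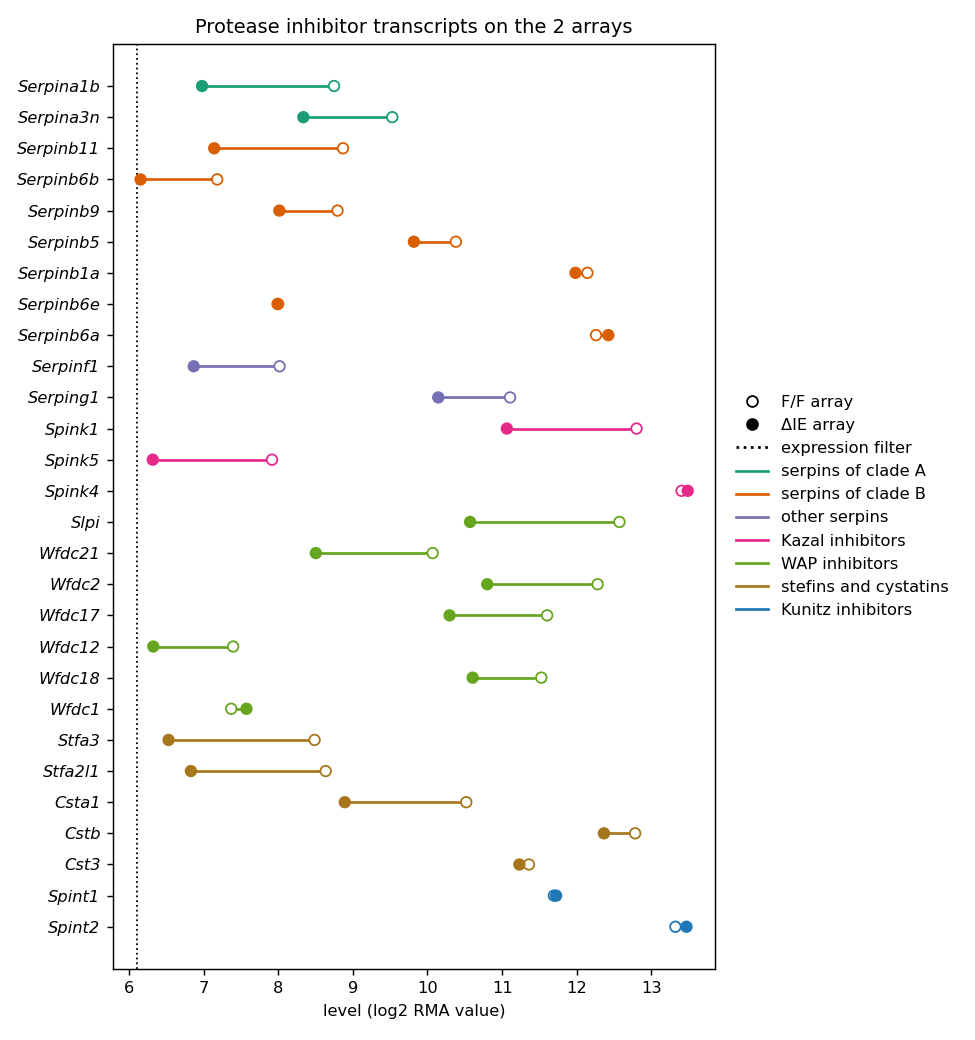
Level (log2 RMA value) of the 28 protease inhibitor genes kept, with open points for F/F and filled points for ΔIE, by family; the dotted line is the expression filter at 6.11. Slpi (12.57 and 10.57) and Stfa3 (8.49 and 6.53) lie furthest apart, and the points of Serpinb6e, Spint1 and Spink4 nearly coincide.

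**Figure D2:**
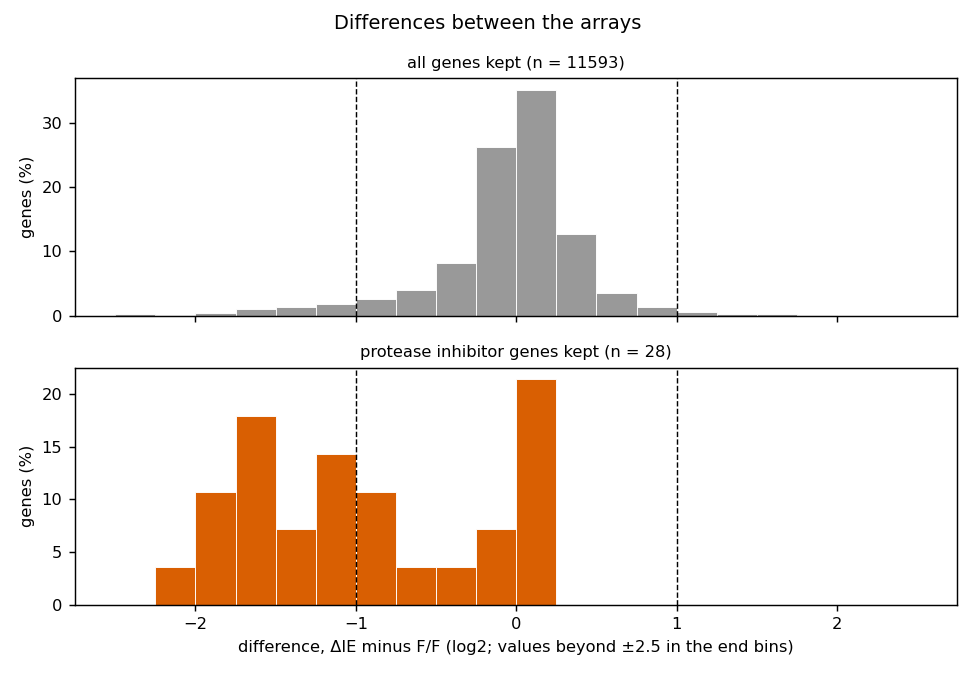
Share of genes (percent) by difference, ΔIE minus F/F (log2), in equal bins for all 11593 genes kept (upper) and the 28 protease inhibitor genes kept (lower); dashed lines mark 2-fold. All genes centre on a median of 0.02, whereas the inhibitor genes spread from -2.001 to 0.20 with a median of -1.05.

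The WAP family, named for the whey acidic protein domain, held the largest difference and was lower in nearly every member kept. Slpi, the secretory leukocyte protease inhibitor that blocks neutrophil elastase and cathepsin G and is made by epithelium and phagocytes, read 12.57 in F/F against 10.57 in ΔIE, a log2 difference of -2.001. Of the 12 WAP genes 7 were kept, 5 of them at least 2-fold lower, with a median of -1.31. Over all 12 the median was -0.69.

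Secreted WAP proteins of epithelium and of macrophages were both among the lower members. Wfdc2, a secreted WAP protein of mucosal and glandular epithelium, read 12.28 in F/F and 10.80 in ΔIE. Wfdc17, a WAP protein of activated macrophages and microglia, read 11.60 and 10.30. Wfdc21 read 10.07 and 8.50. These were 2.79-fold, 2.47-fold and 2.96-fold lower. Wfdc12, whose product has antibacterial activity, was 2.10-fold lower from values nearer the filter (7.40 and 6.33), and Wfdc18, a secreted proteinase inhibitor gene, was just short of 2-fold (11.52 and 10.60). The exception was Wfdc1, a stromal WAP gene, at 7.37 in F/F and 7.58 in ΔIE. Wfdc15a, Wfdc15b, Wfdc3, Wfdc5 and Wfdc6a were below the filter on both arrays, with differences from -0.47 to 0.27.

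The ACGTG letters that form the core of the hypoxia response element, to which HIF factors bind, were searched in promoter windows because the compared mice differ in a HIF gene. The window upstream of Slpi, from RefSeq (GRCm38.p6, chr2:164356508-164356757, minus strand, 250 bases up to the base before the start site), is shown because it holds the letters on both strands as 1 palindrome at positions -146 and -145 from the start, in capitals:
Slpi: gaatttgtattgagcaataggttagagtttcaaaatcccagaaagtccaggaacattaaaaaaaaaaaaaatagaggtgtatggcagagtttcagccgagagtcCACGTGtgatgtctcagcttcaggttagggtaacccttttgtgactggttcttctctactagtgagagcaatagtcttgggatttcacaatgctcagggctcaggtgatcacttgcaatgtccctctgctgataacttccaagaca
Of the 28 members kept, 20 had a promoter in the RefSeq table, with 22 windows reaching from 250 bases before to 50 after a start. Of these windows 3 (13.6%), those of Slpi, Serpinb5 and Serpinf1, held ACGTG on either strand, against 25.1% of 12000 windows of genes kept and 19.6% of all 32851 windows. Among the 13 windows of members at least 2-fold lower, 15.4% held it. These 13 windows are few and belong to 12 genes, since Wfdc2 has overlapping windows, and no difference between the shares was tested. A match is no evidence of binding. Other forms of the motif and letters outside these windows were not searched. Cstb, Serpinb1a, Serping1, Spink1, Spink4, Spink5, Wfdc1 and Wfdc21 were not matched.

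Stefins, intracellular inhibitors of cysteine cathepsins, divided by gene. Stfa3 read 8.49 in F/F and 6.53 in ΔIE, Stfa2l1 read 8.64 and 6.83, and Csta1 read 10.52 and 8.89. These were 3.88-fold, 3.49-fold and 3.09-fold lower, so the 3 stefin A genes measured with a single symbol were all lower by over 3-fold; stefin A genes of this cluster are known as neutrophil transcripts in the mouse. Cstb, the gene of the widely expressed stefin B, read 12.78 and 12.36, and Cst3, which encodes the secreted inhibitor cystatin C, read 11.36 and 11.23. These were 1.34-fold and 1.09-fold lower, and the second Cstb probe set differed by -0.60. Cst7, the gene of cystatin F of leukocyte lysosomes, was above the filter only in F/F (6.24 and 5.32), and Cst6, a skin cystatin gene, only in ΔIE (5.79 and 6.33). Over the 5 genes kept the median was -1.63, over all 7 it was -0.92, and over those kept without Stfa2l1 and Stfa3 it was -0.42, so the size rests on the stefin A genes.

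The stefin A genes are copies of one another, so their probe sets may share transcripts and the 3 differences may not be separate measurements. Their windows are shown because the start regions are also alike (RefSeq, GRCm38.p6, 250 bases each; Stfa3 at chr16:36455393-36455642, minus strand, Stfa2l1 at chr16:36156561-36156810, plus strand, Csta1 at chr16:36131190-36131439, minus strand), with capitals for runs of at least 9 bases that all 3 share:
Stfa3: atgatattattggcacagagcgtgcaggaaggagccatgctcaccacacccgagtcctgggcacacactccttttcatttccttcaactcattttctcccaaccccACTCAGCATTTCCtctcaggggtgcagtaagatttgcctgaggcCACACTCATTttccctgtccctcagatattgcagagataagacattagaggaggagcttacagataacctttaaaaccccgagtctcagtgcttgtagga
Stfa2l1: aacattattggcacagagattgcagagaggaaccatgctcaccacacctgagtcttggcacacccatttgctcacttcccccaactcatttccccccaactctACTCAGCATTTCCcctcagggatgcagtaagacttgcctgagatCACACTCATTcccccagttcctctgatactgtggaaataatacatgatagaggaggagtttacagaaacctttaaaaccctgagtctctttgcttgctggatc
Csta1: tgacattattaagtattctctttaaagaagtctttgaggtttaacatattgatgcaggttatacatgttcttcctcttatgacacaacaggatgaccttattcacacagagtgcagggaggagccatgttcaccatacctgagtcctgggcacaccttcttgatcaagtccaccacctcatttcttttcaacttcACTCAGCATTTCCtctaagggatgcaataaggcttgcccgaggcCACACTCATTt
By local alignment of the 300-base windows, Stfa2l1 and Stfa3 were 82.3% identical over 299 aligned positions, Csta1 and Stfa3 79.7% over 212, and Csta1 and Stfa2l1 78.8% over 208. Among the 187 other pairs of member promoters the median alignment score was 15.50 and the highest 66.5 (Wfdc17 with Wfdc18, neighbours on chromosome 11), against 118.5 to 191.0 for the stefin pairs. The shared letters in capitals are 13 and 10 bases long.

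Neutrophil and macrophage markers were lower on the same arrays. Of 18 neutrophil markers listed 14 were kept, all 14 were lower and 11 at least 2-fold, with a median of -1.49; their mean level was 10.64 in F/F and 9.28 in ΔIE. All 15 macrophage and monocyte markers were kept and lower, 8 at least 2-fold, with a median of -1.02 and mean levels of 9.34 and 8.39. The median was -1.81 over 4 B cell markers kept, -0.37 over 4 of T cells, -0.43 over 7 of endothelium, -0.04 over 6 of smooth muscle and 0.79 over 3 of adipocytes. The stefin A genes, Slpi and Wfdc17 were lower as well, whereas Serpinb1a, an inhibitor of neutrophil proteases, differed by only -0.16. With 2 arrays any lower gene goes with any lower list. The part of neutrophils and macrophages in the result was not tested. In bulk tissue, fewer cells of a type and less RNA per cell cannot be told apart.

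Kazal inhibitors split sharply between Spink1 and Spink4, which are both secreted in the gut. Spink1, the trypsin inhibitor gene of pancreas and intestinal epithelium, read 12.80 in F/F against 11.06 in ΔIE and was 3.33-fold lower. Spink4, a goblet cell product, read 13.40 and 13.49. Spink5, the gene of the multidomain inhibitor LEKTI that restrains kallikreins in squamous epithelium, was 3.03-fold lower (7.92 and 6.32). The other 4 Kazal genes, Spink2, Spink8, Spink10 and Spink12, were below the filter on both arrays. Goblet cell markers had a median of 0.15, with 6 of 7 above 0. Of 12 markers of pancreatic acinar cells 3 were kept, with a median of 0.07. The 3 genes went both ways, from -0.72 to 0.25, and the part of either cell type in the Spink1 difference was not tested.

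The Kunitz members Spint1 and Spint2 hardly differed. Spint1 (HAI-1) and Spint2 (HAI-2), transmembrane inhibitors of matriptase and prostasin in epithelium, read 11.69 and 13.32 in F/F and 11.72 and 13.47 in ΔIE. Both probe sets of Spint2 were close, at 0.15 and 0.18. Under the lowess correction Spint1 differed by -0.03 in place of 0.03, so its sign is not settled. Colonocyte markers were a little higher too, with a median of 0.22 and 6 of 8 above 0.

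Serpins of clade A, most of them liver products that circulate in plasma, were below the filter apart from Serpina1b and Serpina3n. Serpina3n, an acute phase antichymotrypsin, read 9.53 in F/F and 8.34 in ΔIE. Serpina1b, one of the mouse α1-antitrypsin copies, read 8.75 and 6.98, and its second probe set 7.96 and 6.54. They were 2.28-fold and 3.41-fold lower. Both Serpina1b probe sets are of the _x_at kind, which can match other copies, and Serpina1c (5.04 and 4.26) was below the filter, so which copy was measured is uncertain. Of 7 liver markers 2 were kept, with differences of -0.11 and -1.66. The other 12 clade A genes, among them the pseudogene Serpina4-ps1 and the hormone carrier genes Serpina6 and Serpina7, had means under the filter, and over all 14 the median was 0.13. Serpina10 reached the filter on the ΔIE array only (5.44 and 6.13).

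Serpins of clade B, which act inside cells and lack a classical secretion signal, ranged from 3.31-fold lower to slightly higher. Serpinb11 read 8.87 in F/F against 7.14 in ΔIE, and Serpinb6b read 7.18 against 6.16. Serpinb9, the granzyme B inhibitor that shields cytotoxic and antigen-presenting cells, read 8.79 and 8.02. Serpinb5 (maspin), an epithelial serpin without protease inhibition, read 10.38 and 9.82. The 4 probe sets of Serpinb5 gave differences from -0.56 to -0.33, while those of Serpinb9 gave -0.78 and -1.21, so Serpinb9 lay on either side of 2-fold.

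Serpinb1a, which inhibits neutrophil elastase, proteinase 3 and cathepsin G, read 12.14 and 11.98, with its second probe set at -0.18. Serpinb6a, which inhibits cathepsin G, read 12.26 and 12.42. Its paralogue Serpinb6e read 7.99 and 8.00, while Serpinb6b, another paralogue, was 2.04-fold lower (7.18 and 6.16). The ΔIE value of Serpinb6b lay near the filter. Serpinb6e has 1 probe set, of the _x_at kind, which can match other copies, so which copy was measured is uncertain. The Serpinb6 probe sets thus did not share 1 size, but whether the copies differ was not determined. Of the 7 clade B genes kept 2 were 2-fold lower and the median was -0.56, and over all 18 it was -0.20. Serpinb3a, of the squamous cell carcinoma antigen group, passed the filter in F/F only (6.55 and 5.23). Serpinb2 (PAI-2), which inhibits plasminogen activators, was below it on both (5.74 and 4.84).

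Several members are known from skin or other stratified squamous epithelium, the tissue that also lines the anal canal. Squamous markers were lower on the same arrays: of 16 listed 11 were kept, all 11 below 0 and 8 at least 2-fold lower, with a median of -1.21 and mean levels of 10.51 and 9.35. Posterior Hox genes, of groups 10 to 13, had a median of -1.46 over 6 genes kept. Without a filter 13 of 15 squamous markers measured were below 0, and the squamous markers Lor and Ivl were above it, at 0.60 and 0.22. Among members, Spink5 differed by -1.60, Wfdc12 by -1.07 and Serpinb5 by -0.56. Serpinb3a, Serpinb7, Serpinb12 and Cst6 had means under the filter and differed by -1.32, -0.10, 0.18 and 0.54, so only the dim members named went both ways. That grouping was made after values were seen and is not a full list of members found in such tissue. The part of squamous tissue in the result was not tested.

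The remaining serpins are plasma and matrix proteins. Serping1 (C1 inhibitor), which blocks the first complement proteases and plasma kallikrein, read 11.11 in F/F and 10.14 in ΔIE, just short of 2-fold. Serpinf1 (PEDF), a serpin without protease inhibition made by fibroblasts, read 8.02 and 6.87 by its brighter probe set. Its other probe set read 6.58 and 6.51, and averaged over both the difference was -0.61 in place of -1.15, so the 2-fold size rests on 1 probe set. Fibroblast markers were lower on the same arrays, 9 of 9 with a median of -0.89 and mean levels of 11.29 and 10.48, and their part was not tested. Serpinc1 (antithrombin), Serpind1 (heparin cofactor II), Serpinf2 (α2-antiplasmin), Serpini1 (neuroserpin) and Serpini2 were below the filter on both arrays. A2m, the gene of the broad plasma inhibitor α2-macroglobulin, was below it too (4.67 and 4.32).

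In all, 40 of the 68 members were under the filter, 36 of them on both arrays, with means from 2.81 to 6.06. As many of them were below 0 as above it, 19 each, and their median difference was 0.00. RMA compresses differences of dim probe sets, so these values bound little.

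Target proteases were counted by list, and no difference between these lists and the inhibitors was tested. Of the 3 neutrophil serine protease genes measured (Elane, Prtn3 and Ctsg) 0 were kept, and all 3 were below 0. Ctsg, the cathepsin G gene, read 5.07 and 4.01, Prtn3 (proteinase 3) 6.40 and 5.51 and Elane, the elastase gene, 4.83 and 4.71. These protease genes are known to be transcribed mainly in neutrophil precursors of the marrow. All 11 cysteine cathepsin and legumain genes were kept, 9 were below 0 and 1 was 2-fold lower, with a median of -0.18. Ctsk, the collagen-degrading cathepsin K, was 2.01-fold lower, Ctsh 1.66-fold and Ctsc, the activator of neutrophil serine proteases, 1.47-fold, and Ctsb and Ctss differed by -0.12 and -0.22. The stefin A genes were thus lower by more than any of the cathepsin genes listed; whether the sizes differ beyond the variation between mice was not tested.

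Trypsin-like proteases of epithelium went both ways. Of 20 listed 11 were kept, 3 at least 2-fold lower and none 2-fold higher, with a median of 0.02. Prss27 read 11.10 in F/F and 9.42 in ΔIE, Prss22 11.16 and 9.54, and Klk13, a kallikrein of squamous epithelium, 8.30 and 6.63. These were 3.21-fold, 3.07-fold and 3.18-fold lower. St14 (matriptase) and Prss8 (prostasin), the targets of Spint1 and Spint2, differed by 0.26 and 0.62, and Hgfac, an activator of hepatocyte growth factor, by 0.75. Plat, the tissue plasminogen activator gene, was 2.55-fold lower (9.09 and 7.74), and Plaur, the receptor of the urokinase type, 1.42-fold; the other 3 genes of the plasminogen list were not kept. Granzymes and mast cell proteases had 3 of 12 genes kept and a median of -0.15.

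A list of protease inhibitors that the rule did not take was counted beside the members, with no test of a difference. Of 27 listed 13 were kept, 10 below 0 and 2 at least 2-fold lower, with a median of -0.48. Pi16 and Timp1, the inducible inhibitor of matrix metalloproteinases, were 2.56-fold and 2.54-fold lower, Itih5 1.84-fold and Timp2 1.82-fold. Tfpi2, which like Spint1 and Spint2 encodes a Kunitz protein, was 1.87-fold higher (7.36 and 8.26), and Serpinh1, the serpin left out by the rule, differed by -0.62.

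**Figure D3:**
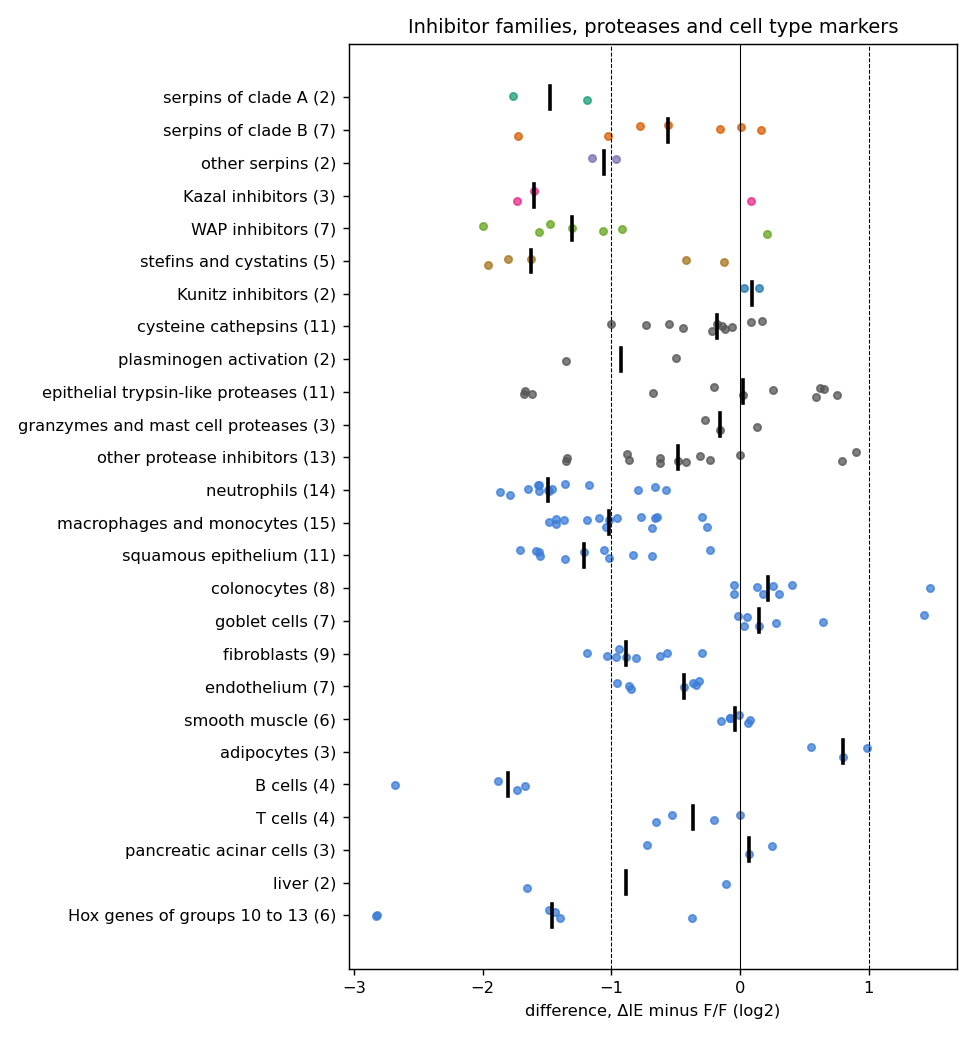
Difference, ΔIE minus F/F (log2), of each gene kept, by inhibitor family (coloured by family), by list of proteases and other inhibitors (grey) and by list of cell type or position markers (blue); black bars are medians, dashed lines mark 2-fold and numbers of genes stand in parentheses. Kunitz inhibitors, colonocyte and goblet cell markers lie near or above 0, and stefins, WAP inhibitors, neutrophil, B cell and squamous markers mostly below -1.

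Most members lie in clusters of related genes, and some clusters held more than 1 lower member among their genes kept. Members on 1 chromosome less than 500 kb apart in the RefSeq gene table were taken as a cluster, which gave 8 clusters with at least 1 gene kept. The 3 stefin A genes with a single symbol on chromosome 16, both Spink genes kept on chromosome 18, all 3 WAP genes kept on chromosome 2 (Slpi, Wfdc2 and Wfdc12) and both clade A genes kept on chromosome 12 were at least 2-fold lower. Of the 3 WAP genes on chromosome 11, Wfdc17 and Wfdc21 were, and Wfdc18 was not. These counts leave out members under the filter. The clusters on chromosomes 12, 2 and 18 hold 13, 8 and 3 members, of which 2, 3 and 2 were kept. The clade B clusters on chromosomes 1 and 13 hold 7 and 11, of which 2 and 5 were kept. Over all members kept 53.6% were 2-fold lower, against 4.92% of all genes kept. In clade B the cluster on chromosome 1 (Serpinb5 and Serpinb11 kept) had a median of -1.14 and that on chromosome 13, which holds Serpinb1a, Serpinb6a, Serpinb6b, Serpinb6e and Serpinb9, a median of -0.16; the difference between these was not tested.

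Other genes within or near the clusters were mostly under 2-fold. Their medians ran from -0.32 over 3 genes on chromosome 18 to 0.27 over 6 genes on chromosome 13. Near the stefin A genes, 3 of 14 other genes kept were at least 2-fold lower, the leukocyte genes Cd86, Eaf2 and Hcls1, and the median was -0.02. Near Slpi, 1 of 22 was 2-fold lower, the neutrophil metalloproteinase gene Mmp9 (9.33 and 7.77), and 1 was 2-fold higher, the skeletal muscle gene Tnnc2 (7.17 and 9.04), with a median of 0.02. Near the WAP genes of chromosome 11, 1 of 13 was 2-fold lower, AI662270 (8.10 and 6.47), and the median was -0.10. No other gene kept near the remaining 5 clusters was at 2-fold.

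**Figure D4:**
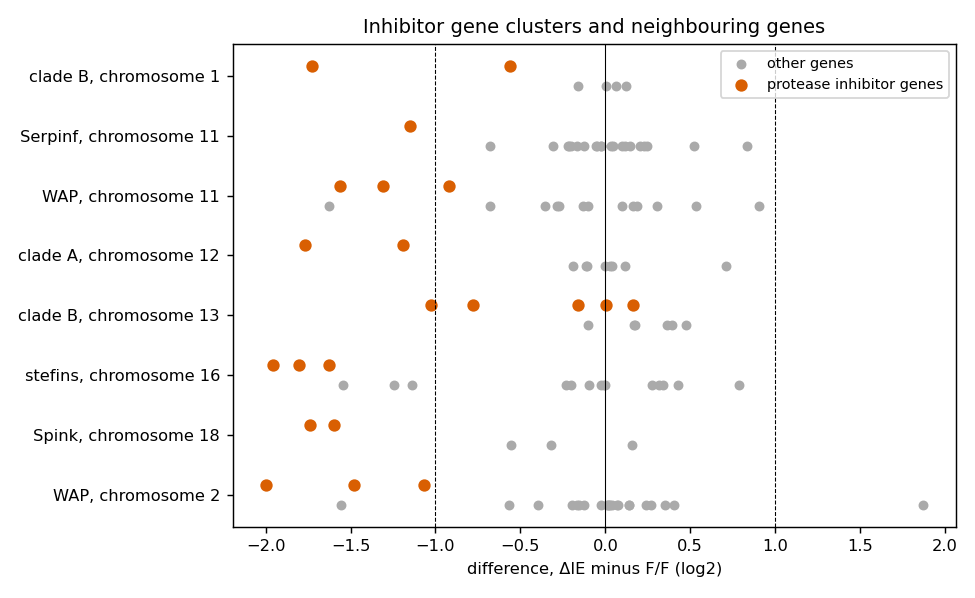
Difference, ΔIE minus F/F (log2), of inhibitor genes kept (orange) and of other genes kept within 500 kb (grey) for the 8 clusters; dashed lines mark 2-fold. The 3 stefin A genes with a single symbol lie left of -1.6, while most grey points lie between -0.5 and 0.5.

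The letters TGANTCA, bound by AP-1 factors, were the second motif searched. They read the same on both strands, and no match in the member windows overlapped one of ACGTG. They stood in 5 of the 22 member windows (22.7%), those of Serpinb11, Serpinb5, Serpina1b, Stfa3 and Spint1, against 5.54% of windows of genes kept and 7.81% of all windows. Among the 13 windows of members at least 2-fold lower 3 (23.1%) held them. These are few windows, and no difference between the shares was tested. As for ACGTG, a match is no evidence of binding. Of the 5 genes, Serpinb11, Serpina1b and Stfa3 were 2-fold lower, Serpinb5 differed by -0.56 and Spint1 by 0.03. In Stfa3 they stand at position 30 after the start, outside the stretch printed, and the window of Stfa2l1 does not hold them. The window of Serpinb11 is shown because it holds them at -181 and -76 (RefSeq, GRCm38.p6, chr1:107362064-107362313, plus strand, 250 bases, motif in capitals):
Serpinb11: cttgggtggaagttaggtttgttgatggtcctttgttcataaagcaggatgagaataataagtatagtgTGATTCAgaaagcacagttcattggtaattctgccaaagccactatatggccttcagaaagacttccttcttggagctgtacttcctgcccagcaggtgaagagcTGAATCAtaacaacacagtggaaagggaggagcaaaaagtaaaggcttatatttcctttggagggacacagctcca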

How the data were processed

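The scrapings, 1 sample per genotype, were assigned to groups from the genotype label; total RNA was extracted with Trizol, and labelled RNA was amplified from 250 ng, per the labels' protocols. The deposited table holds log2 values of 45101 probe sets, which the authors made with affy and RMA, per the submitters' processing notes, and the sources used here do not give versions, a build or other arrays normalized together. Quantile normalization in RMA sets array distributions equal, so a shift shared by most transcripts is removed. The number of arrays limits the precision.

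By the platform annotation 34958 probe sets have 1 symbol; those with several (932), those without (9211) and 64 control probe sets were not analysed here as genes. All 68 member symbols matched a RefSeq gene table of GRCm38.p6 by Entrez ID. No test was run. Genes were counted at 2-fold. Any member above the filter could be named, values on both arrays being given for members at 2-fold, for up to 6 of highest mean per family and where probe sets disagree; other lists gave up to 4 genes of largest difference, and further genes (Ctsb, Ctss, Ctsg, Lor, Ivl, Elane, Prtn3, St14, Prss8, Hgfac, Tfpi2, Serpinh1, Plaur and genes near clusters) were chosen after their values were seen. Members and lists were chosen with earlier results of these data known. The counting was run on simulated data, the F/F values with known differences beyond 2-fold put in. That checks the code only, since the data held no noise like that between arrays. Alternatives were the mean over probe sets, no _s_at or _x_at probe sets, other filters, median centring, lowess (span 0.3) and thresholds of 1.5-fold and 3-fold. A gene was taken to have moved by over 0.39, the 95th percentile of the gap between the 2 brightest probe sets of 4900 genes, and a median by over 0.5 times that. Python 3.11.15, numpy 2.4.6, pandas 2.3.3, statsmodels 0.14.6, Biopython 1.88 and matplotlib 3.10.9 were used.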

Additional observations from a re-analysis of the deposited data

How the results depend on the processing

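Under every setting tried, 0 members were higher at the threshold used, and the median over members stayed below 0. That 0 says little, since few of all genes kept were higher, 129 of 11593 at 2-fold and 497 of 11593 at 1.5-fold. The count of 15 lower members was 7 of 18 with a filter at the 75th percentile (3.72% of all genes), 8 at 3-fold (1.35% of all genes), 18 at 1.5-fold (9.96%), and 14 to 16 under the other settings. The median of members was -0.24 without a filter and -0.85 at the 75th percentile. Members under the filter had a median of 0.00 and ran from -1.32 to 0.69. Those among stefins and cystatins, Cst7 and Cst6, differed by -0.92 and 0.54. Without a filter the family medians were 0.13 for clade A, a reversal of -1.48, and -0.20 for clade B. They were -0.24 for other serpins, -0.25 for Kazal, -0.69 for WAP and -0.92 for stefins and cystatins. At the 75th percentile they were -1.19 for clade A, -0.36 for clade B, -0.83 for Kazal and -0.42 for stefins and cystatins, with fewer genes. Clade A was also -1.19 without _s_at or _x_at probe sets and with a filter on the higher array, and stefins and cystatins -0.92 under that filter. Averaged over probe sets, other serpins were at -0.79. Without Serpina1b, Stfa2l1 and Stfa3, an alternative chosen after seeing the data, 12 of 25 members were 2-fold lower, clade A was at -1.19 and stefins and cystatins at -0.42. Of 183 values of single members under alternatives, 182 stayed within 0.39, and the exception was Serpinf1 averaged over probe sets. Many of the 183 could not move. The filters only choose which genes are counted and leave each value as it was. Averaging cannot change a member with a single probe set, and median centring shifts all genes alike. The count therefore says little about how stable the values are. Median centring and lowess changed no direction of a member at 2-fold, but lowess put Spint1 at -0.03 in place of 0.03, and median centring and lowess both put Serpinb6e at -0.01 in place of 0.01. No paired analysis was possible because each group holds 1 array. With 1 array per genotype, variation between mice is unknown, and no value here can be set against it.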
